A study of Schistocerca gregaria with 20 samples.

Results

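Of the 12988 transcripts in the deposited table, 34 were low in both legs and pleuropodia of the desert locust embryo at days 4 and 5 and abundant in both at days 10 to 12. They were chosen by their own levels: the lowest of the 6 libraries of days 10, 11 and 12 had to reach 10 RPKM (mapped reads corrected for transcript length and for the library's total) and 5 times the highest of the 4 libraries of days 4 and 5. The leg libraries met this condition in 233 transcripts and the pleuropodia libraries in 540. The 34 shared transcripts are 14.6% of the first set and 6.30% of the second. Since the levels at days 4, 5, 10, 11 and 12 selected the transcripts, they are described without a test, and tests were made on days 6 to 8-9 alone.

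The samples were *Schistocerca gregaria* embryos of a gregarious laboratory colony with no treatment or mutation in any group. Pleuropodia, the paired appendages of the first abdominal segment, were compared with hind legs from equally old embryos at 10 stages, namely days 4, 5, 6, 7, 8, 8-9, 10, 11, 12 and 13. Each tissue and stage has 1 library, made from a pool of many dissected appendages, so the 20 libraries hold no replicate of a stage. The groups used here were days 4 and 5 (2 libraries per tissue), days 6, 7, 8 and 8-9 (4 per tissue), days 10 to 12 (3 per tissue) and day 13 (1 per tissue). Depth was 15186075 to 36884141 mapped reads, lowest in the pleuropodia of day 8-9, a pair sequenced at a second centre. At the median transcript length of 1744 bases 1 read of the deepest library is worth 0.0155 RPKM. The leg gene *dac* stood at 9.98 to 99.4 RPKM in the leg libraries and at 0 to 3.31 in the pleuropodia. The segment gene *abd-A* stood at 0 to 0.272 RPKM in legs and at 0.273 to 17.2 in pleuropodia. *Ubx* was higher in pleuropodia at days 4 and 5 and in legs from day 6 on (87.1 against 3.17 RPKM at day 10). The limb gene *Dll* was higher in pleuropodia at days 4, 5, 12 and 13 and in legs on the other days.

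Pleuropodia differentiate into a secreting gland during embryogenesis and degenerate before hatching, whereas the hind leg forms epidermis, muscle, nerve and cuticle. In the same period the embryo of an insect such as the locust lays down and separates from an embryonic cuticle, a process that in moulting uses chitinases and proteases in the fluid beneath the old cuticle. Insect blood cells are a source of pro-phenol oxidases, the precursors of the enzymes of melanization. In whole appendages more cells of a type and more RNA per cell cannot be told apart.

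Of the 34 transcripts, 11 stand in the study's list of 77 abundant transcripts upregulated in secreting pleuropodia, a list the study chose on these same libraries. Of these 11, 8 carry a protein name: Chitinase 5 (SgreTa0017664), which degrades cuticular chitin; a C-type lysozyme (SgreTa0007897), which cleaves bacterial cell walls; pro-phenol oxidase subunit 2 (SgreTa0006966); a collagen (SgreTa0003175), an extracellular matrix protein; a serine protease (SgreTa0001636), one like H2 (SgreTb0003860) and one like Easter (SgreTa0003661), the *Drosophila* protease that activates the Toll ligand; and an uncharacterized protein with a DUF4773 domain (SgreTa0002988). The other 26 have no protein name in the tables used here and are given by transcript ID. Of the 66 other transcripts of that list, 52 met the condition in pleuropodia and none met it in legs. The 3 serine proteases also stand among the study's 24 moulting fluid proteases upregulated in pleuropodia, again chosen on these libraries; 21 of the 24 met the condition in pleuropodia, and in legs these 3 alone.

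At days 4 and 5 the highest of the 4 libraries ranged from 0 to 13.1 RPKM over the 34 transcripts, with a median of 1.17. For 5 of them fewer than 10 reads were found in the 4 early libraries together: SgreTa0005052 and SgreTa0002167 had 0, SgreTa0017712 and Chitinase 5 had 1, and pro-phenol oxidase had 2. The share of all reads taken by the 34 transcripts was 0.00679% in legs and 0.00487% in pleuropodia at day 4. By day 13 it had reached 0.375% in legs and 19.9% in pleuropodia. At day 6 the share was 0.0336% in legs and 0.225% in pleuropodia, but Chitinase 5 and SgreTa0005843 held 66.0% of these pleuropodia reads, and the median level of the 34 was 1.52 RPKM in legs and 1.69 in pleuropodia. At day 7 the shares were 0.0703% and 1.86% and the medians 2.77 and 48.1 RPKM. The highest share in legs was 0.659%, at day 10.

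**Figure D1:**
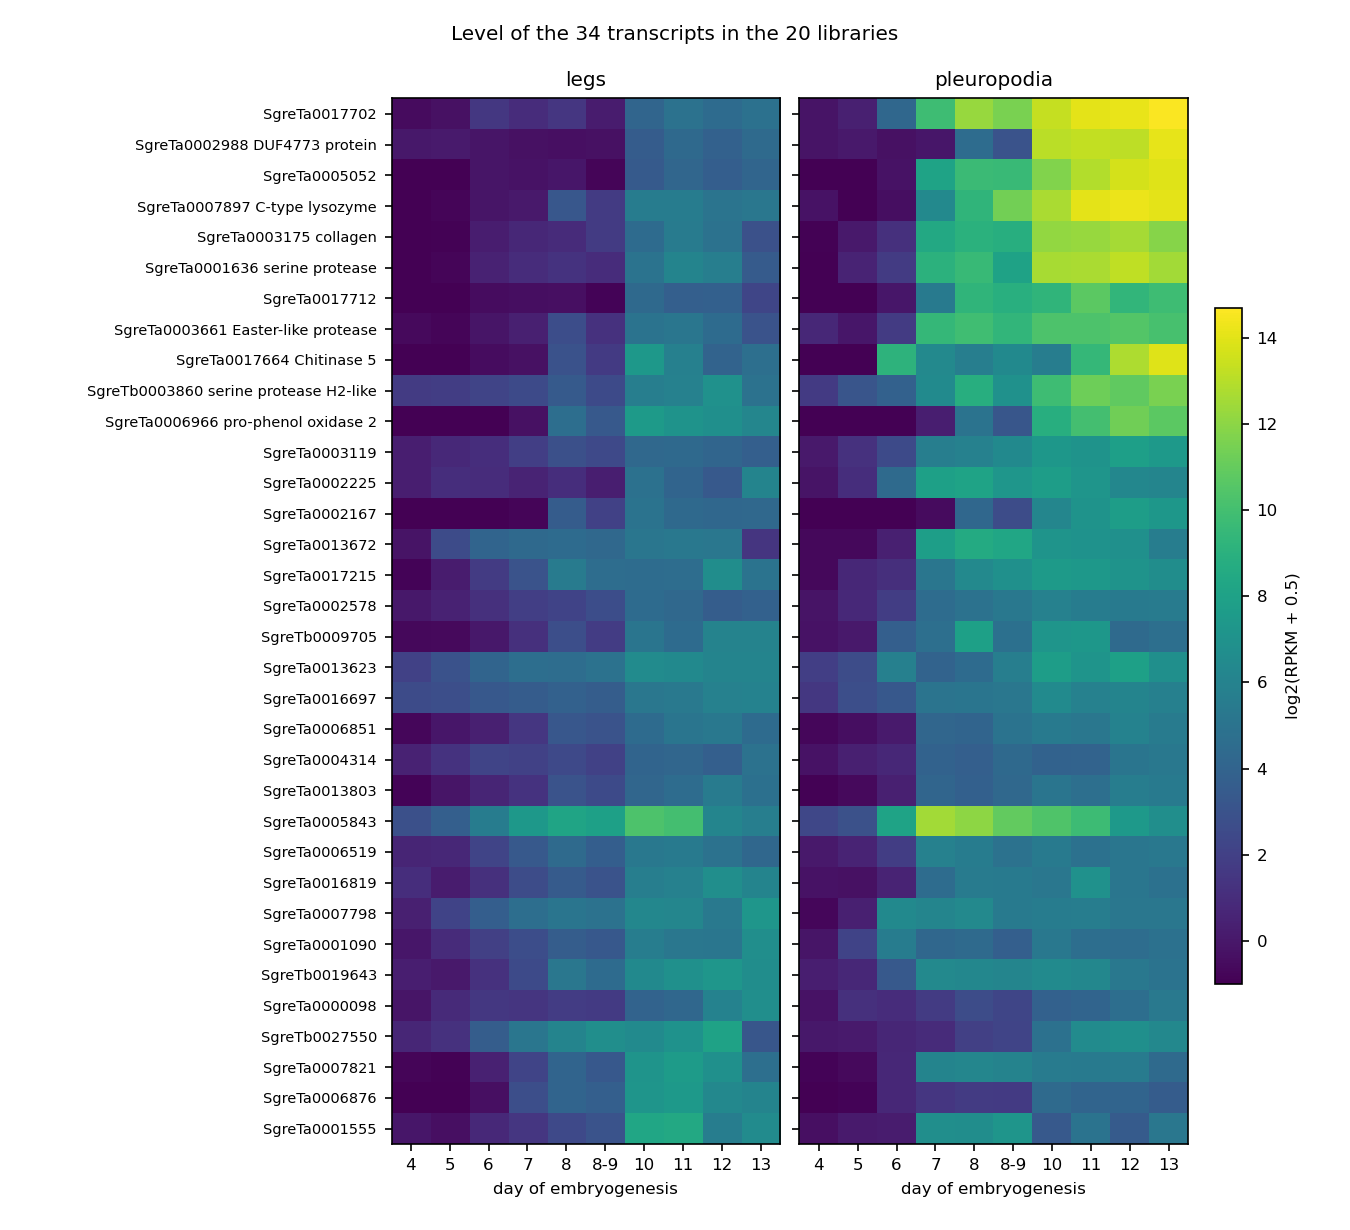
Level of each of the 34 transcripts, as log2(RPKM + 0.5), in the 10 leg libraries (left) and the 10 pleuropodia libraries (right), 1 library per column and 1 transcript per line, ordered from the highest to the lowest ratio of pleuropodia to legs at days 10 to 12. Most lines turn from dark to light between days 6 and 7 in pleuropodia and between days 8-9 and 10 in legs.

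Pleuropodia passed the threshold first in most transcripts. The first stage with at least 5 times the highest early value came earlier in pleuropodia for 24 of the 34 transcripts, earlier in legs for 1, and at the same stage for 9. By day 7 the threshold had been passed by 31 in pleuropodia and by 12 in legs. Over all transcripts with reads at days 6 or 7, 13.3% passed it in pleuropodia and 4.74% in legs by that day. The 34 were chosen to pass this threshold in both tissues at day 10, which by itself favours passing it by day 7. Setting them beside all transcripts therefore cannot show a rise beyond the choice. Legs followed at day 8 with 20 transcripts in all, and the remaining 14 passed in legs only at day 10, where the rule itself required it. The most frequent course, seen in 8 transcripts, was day 7 in pleuropodia and day 10 in legs. With a threshold of 3 times the early value the counts were 16, 2 and 16, and with 50% of the tissue's own mean at days 10 to 12 they were 18, 5 and 11. In this last count legs were first in Chitinase 5, the C-type lysozyme, pro-phenol oxidase, SgreTa0005052 and SgreTb0027550. Where the early level was near 0 a few reads pass the threshold; with a further minimum of 1 RPKM, added after seeing the data, the counts were 28, 1 and 5.

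**Figure D2:**
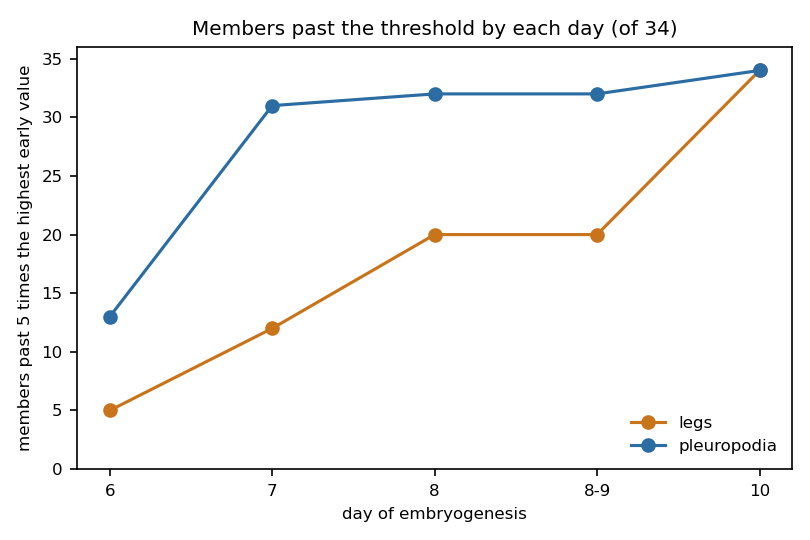
Number of the 34 transcripts (vertical axis) that had reached 5 times their highest value of days 4 and 5 by each day (horizontal axis), in legs and in pleuropodia, 1 library per tissue and day. Pleuropodia stand at 13 at day 6 and 31 at day 7, legs at 5 and 12, and both at 34 at day 10, which the choice of the transcripts fixed.

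Stage by stage, the lead of the pleuropodia widened at day 7. At day 6, 15 of the 34 transcripts were over 2-fold higher in pleuropodia and 3 in legs, where 13.5% and 12.8% of all transcripts with at least 1 RPKM were. At day 7 the counts were 27 and 2, against 18.4% and 18.8% of all. Of the 34, only 27 reached this minimum of 1 RPKM in the higher tissue at day 6 and 31 at day 7. At days 8 and 8-9 pleuropodia were over 2-fold higher in 24 and 26 transcripts and legs in 2 each, against 16.2% and 17.6% of all transcripts for pleuropodia and 29% and 25.2% for legs. In 30 of the 34 the pleuropodia library was the higher one at each of days 7, 8 and 8-9, a count given without the share over all transcripts. These are comparisons of single libraries.

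Which appendage had the higher level was tested over the 4 pairs of days 6, 7, 8 and 8-9, with day as a block. The fit used limma on TMM-scaled log2(RPKM + 0.5), a scale that understates the change of low transcripts. A higher level on these days can go with an earlier rise or a higher final level, and the test does not separate them. The libraries of a group are of different ages, and the p-values measure the spread of the difference between days. Of the 34 transcripts 31 passed the filter on low values, 18 were higher in pleuropodia and 1 was higher in legs at an adjusted p under 0.05. Over all 10366 transcripts tested, 23.9% were higher and 29.8% lower in pleuropodia. The median difference was 2.24 on the log2 scale over the 31 and -0.08 over all. With scaling to library totals the median over all was -0.31, and 17.0% of all transcripts were called higher and 41.4% lower, while 17 and 1 of the 31 were called.

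The count depended on single days. Without the pair of day 6, 30 transcripts of the set were called higher in pleuropodia and 2 in legs, against 32.5% and 34.4% of all transcripts tested. These 30 include SgreTa0005052 and SgreTa0017712, which the filter left out of the fit over all 4 days. Both were under 1 RPKM in every leg library of days 7, 8 and 8-9 and passed the filter through their pleuropodia values. Without day 7, 8 or 8-9, 6, 8 and 8 were called higher in pleuropodia, against 10.5%, 13% and 12.2% of all, where 13.9%, 17.6% and 16.7% of all were lower. The single transcript higher in legs stayed called in each of these fits. In 6 of the 19 called transcripts the call held in all 9 alternative fits: SgreTa0002225, SgreTa0003119, SgreTa0005843, the protease like H2 and SgreTb0009705, higher in pleuropodia, and SgreTb0027550, higher in legs.

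**Figure D3:**
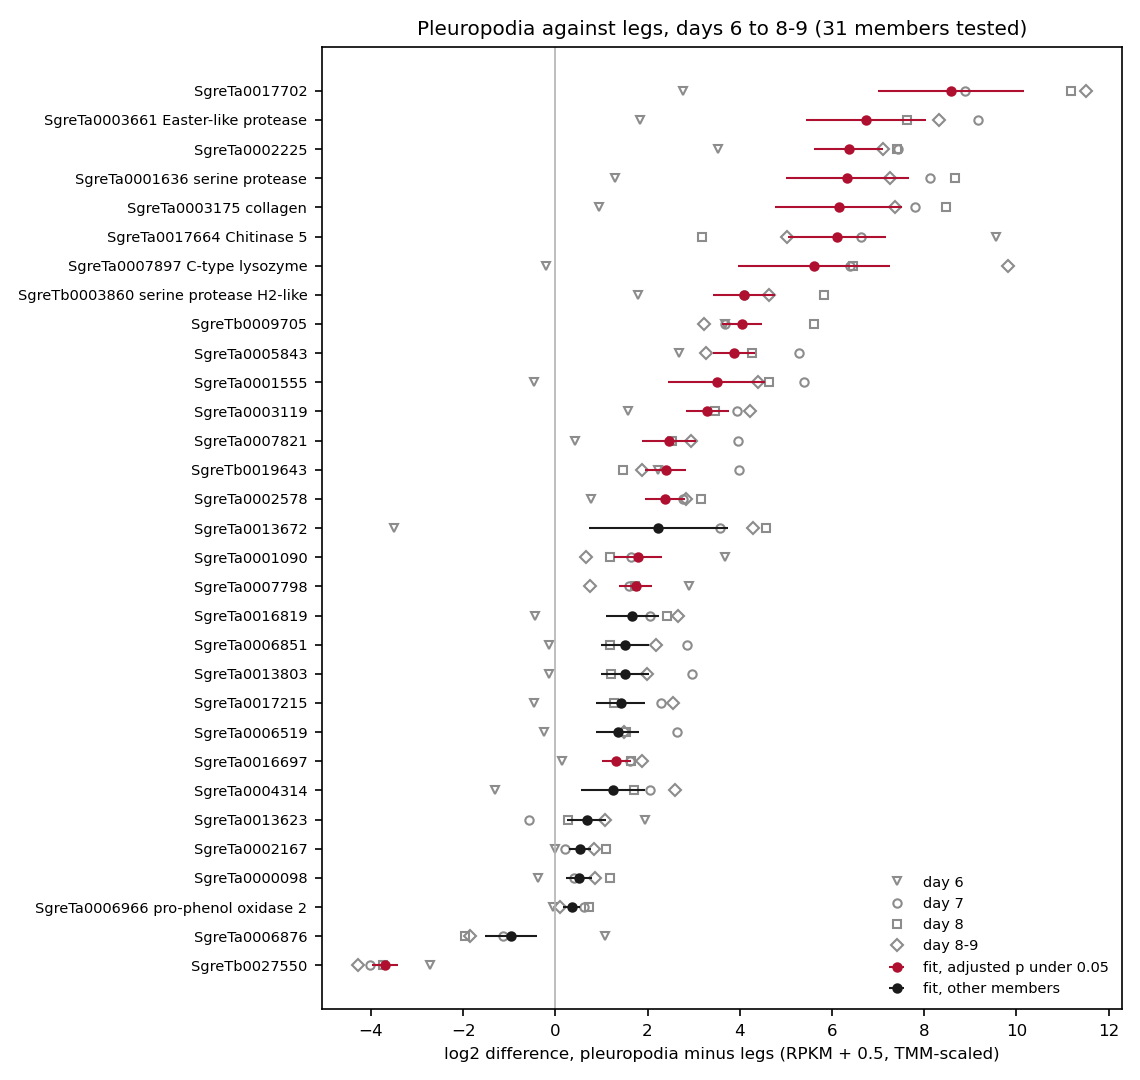
Log2 difference of pleuropodia and legs (horizontal axis) for the 31 transcripts tested (vertical axis) at days 6, 7, 8 and 8-9 (open symbols, 1 pair of libraries each) and as fitted over the 4 days (filled points, bars are standard errors). The day 6 symbols lie left of the others in most lines, and SgreTb0027550 is the only called transcript left of 0.

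The largest difference belonged to SgreTa0017702, which has no protein name. In pleuropodia it measured 18.5, 900.4, 4915 and 2987 RPKM at days 6, 7, 8 and 8-9, and in legs 2.47, 1.51, 2.26 and 0.648. The groups did not overlap, and the difference was 8.59 ± 1.59 on the log2 scale (SE, adjusted p = 0.0111 from limma). Without day 7, 8 or 8-9 the adjusted p was 0.0501 to 0.0574. It had the highest level of the 34 at days 10 to 12, with 15186 ± 4352 RPKM in pleuropodia and 23.1 ± 6.30 in legs (SD, n = 3 stages each).

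The serine proteases and the collagen followed a common course. SgreTa0003661, like Easter, measured 2.85, 717, 965 and 653 RPKM in pleuropodia at days 6 to 8-9 and 0.436, 0.778, 5.98 and 1.86 in legs, a difference of 6.74 ± 1.31 (adjusted p = 0.0127 from limma). SgreTa0001636 measured 2.79, 535, 775 and 266 in pleuropodia and 0.895, 1.53, 1.98 and 1.48 in legs (6.34 ± 1.34, adjusted p = 0.0161 from limma). All 3 days from day 7 on were above every leg value in both proteases. The collagen SgreTa0003175 had 1.73, 356, 529 and 461 RPKM in pleuropodia and 0.693, 1.19, 1.41 and 2.77 in legs (6.14 ± 1.37, adjusted p = 0.0186 from limma). These 3 calls were lost without day 7, 8 or 8-9, with adjusted p up to 0.0607 for SgreTa0003661, 0.0749 for SgreTa0001636 and 0.0842 for the collagen. The collagen and SgreTa0001636 had the most similar profiles of any pair among the 34, with Pearson's r = 0.997 of log2(RPKM + 0.5) over the 20 libraries, which share depth and age. The protease like H2, SgreTb0003860, was already present early, at 2.63 to 8.27 RPKM at days 4 and 5. At days 6 to 8-9 it measured 14.4, 90.0, 458 and 124 in pleuropodia and 4.14, 5.28, 10.3 and 5.38 in legs, and the groups were apart on all 4 days (4.09 ± 0.66, adjusted p = 0.00800 from limma).

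SgreTa0002225 was higher in pleuropodia by a similar margin, without a known name. It measured 21.0, 242, 275 and 151 RPKM at days 6 to 8-9 in pleuropodia and 0.729 to 1.58 in legs, where it was no higher than at day 5 (1.61). The difference was 6.37 ± 0.75 (adjusted p = 0.00398 from limma). In legs it stood at 27.9 at day 10 and 67.7 at day 13, its highest leg value, close to the 71.3 of the pleuropodia at that age.

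Chitinase 5 came in a different order. Listed at 0 in both leg libraries of days 4 and 5, with 1 read in the early pleuropodia, it reached 572 RPKM in pleuropodia at day 6 (95% Poisson limits 566 to 578, counting error only), where the legs had 0.211 (0.115 to 0.353). It then stood at 83.1, 51.4 and 88.2 RPKM at days 7, 8 and 8-9 in pleuropodia and at 0.330, 7.12 and 2.65 in legs. Pleuropodia were higher on all 4 days (6.10 ± 1.06, adjusted p = 0.00963 from limma, and 0.0528 without day 7). At day 10 legs held the higher level, 167 RPKM against 49.1, and at days 11 and 12 legs had 55.9 and 15.4 and pleuropodia 709 and 7102. The highest leg value was thus that of day 10, whereas pleuropodia were highest at day 13 (15374 RPKM) with an earlier high value at day 6. Its means over days 10 to 12, 2620 ± 3896 RPKM in pleuropodia and 79.3 ± 78.2 in legs (SD, n = 3), have a spread about as large as the mean or larger, and the groups overlap.

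**Figure D4:**
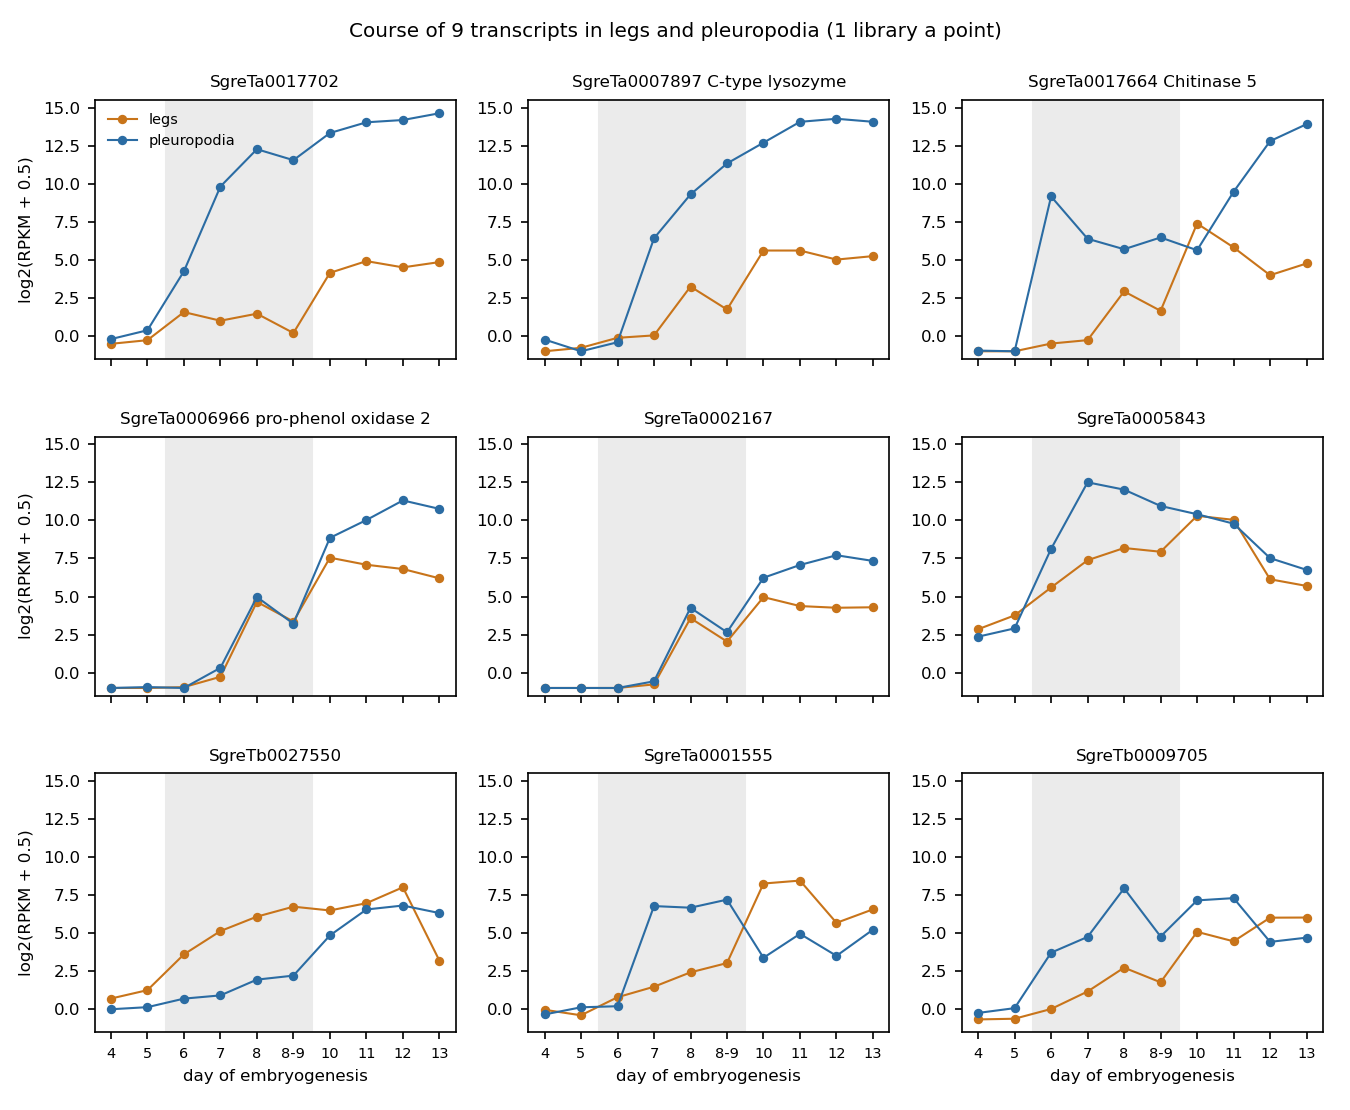
Course of 9 of the transcripts as log2(RPKM + 0.5) (vertical axis) over the 10 stages (horizontal axis), 1 library per point; the days tested are shaded. Most pleuropodia curves leave the leg curves at day 6 or 7; pro-phenol oxidase and SgreTa0002167 keep together until day 8-9, and SgreTb0027550 is first in legs.

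Pro-phenol oxidase subunit 2 appeared in both appendages together. It measured 0, 0.75, 30.9 and 8.82 RPKM in pleuropodia at days 6, 7, 8 and 8-9 and 0.0198, 0.332, 24.7 and 9.77 in legs, and the groups overlap. The difference of 0.35 ± 0.18 did not pass the test (adjusted p = 0.161 from limma); without the pair of day 6 it was 0.49, just past the threshold (adjusted p = 0.0493, and 0.0493 to 0.875 over its 7 alternatives). From day 10 the tissues parted: pleuropodia had 462, 1041 and 2539.8 RPKM at days 10, 11 and 12 and legs 187, 136 and 112, so that the leg level was 40.5% of the pleuropodia level at day 10 and 4.39% at day 12. Of all 12988 transcripts the one with the most similar profile was another of the 34, the unnamed SgreTa0002167 (Pearson's r = 0.994 over the 20 libraries). It was listed at 0 in all 6 libraries of days 4, 5 and 6 and at day 8 measured 18.7 RPKM in pleuropodia, with 11.5 in legs (difference over the 4 days 0.53 ± 0.24, adjusted p = 0.114 from limma, and 0.0366 without day 6, with 0.0366 to 0.785 over its 7 alternatives). It was singled out after its values were seen. Pro-phenol oxidase was the only blood cell marker fixed for these data, and the part of blood cells in either level was not tested.

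The C-type lysozyme SgreTa0007897 was low in both tissues to day 6. Pleuropodia had 0.254 RPKM at day 6 and 84.9, 628 and 2570.4 at days 7, 8 and 8-9, and legs 0.423, 0.530, 9.00 and 2.85. Day 6 was the only day with the higher value in legs, and the difference over the 4 days was 5.61 ± 1.65 (adjusted p = 0.0397 from limma). This call held in 4 of 9 alternatives and was lost without the filter, without the day as a block (adjusted p = 0.0869) and without day 7, 8 or 8-9 (up to 0.135). The DUF4773 protein was the latest of the named transcripts. It was under 0.6 RPKM in every library up to day 7, stood at 22.5 and 7.6 RPKM at days 8 and 8-9 in pleuropodia with 0.284 and 0.325 in legs, and had reached 8677 in pleuropodia and 11.3 in legs at day 10. It did not pass the filter on low values, nor did SgreTa0005052 and SgreTa0017712, so these 3 were not tested in the fit over all 4 days. In legs all 3 were under 1 RPKM on these days. SgreTa0005052 and SgreTa0017712 entered 2 alternative fits and were called in 1 each, that without day 6. The DUF4773 protein entered 1 and was not called (adjusted p = 0.164 from limma). SgreTa0005052 had 0.348, 273, 845 and 787 RPKM at days 6 to 8-9 in pleuropodia and at most 0.448 in legs.

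SgreTb0027550 was the only transcript called higher in legs over the 4 days. Legs measured 11.7, 34.9, 67.7 and 107 RPKM at days 6, 7, 8 and 8-9 and pleuropodia 1.14, 1.40, 3.39 and 4.16, without overlap (-3.69 ± 0.28, adjusted p = 0.00180 from limma). Pleuropodia came to 28.5, 93.9 and 113 at days 10, 11 and 12, when legs had 89.8, 125 and 259. At day 13 the order was the opposite, with 8.73 RPKM in legs and 79.8 in pleuropodia. SgreTa0006876, also higher in legs from day 7 on, measured 0.279, 6.35, 16.5 and 12.9 RPKM in legs and 1.17, 2.31, 2.81 and 2.66 in pleuropodia. Its difference did not pass the test over the 4 days (-0.96 ± 0.56, adjusted p = 0.202 from limma) and did so without the pair of day 6 (adjusted p = 0.00241 from limma, and 0.00241 to 0.479 over its 9 alternatives).

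Several transcripts led in pleuropodia and were later higher in legs. Of the 10 with the higher mean in legs at days 10 to 12, 8 had been higher in pleuropodia at each of days 7, 8 and 8-9. This order was seen in 30 of all 34, and the share over all transcripts is not given. The widest crossing was that of SgreTa0001555: pleuropodia had 109.8, 102 and 147 RPKM on those days and legs 2.31, 4.91 and 7.75, whereas at days 10, 11 and 12 pleuropodia had 10.0, 30.7 and 11.0 and legs 307, 351 and 50.9. Over days 6 to 8-9 the difference was 3.5 ± 1.05 towards pleuropodia (adjusted p = 0.0422 from limma), a call that held in 4 of 9 alternatives and was lost without the filter, without the block (adjusted p = 0.101) and without day 7, 8 or 8-9 (up to 0.150). SgreTa0007821 took the same course, with 66.4, 72.9 and 64.2 RPKM in pleuropodia and 4.21, 16.5 and 9.50 in legs at days 7 to 8-9 (2.46 ± 0.59 with day 6, adjusted p = 0.0222 from limma). Its call was lost without the block (adjusted p = 0.178) and without day 7, 8 or 8-9 (0.0780 to 0.0905). At days 10 to 12 it measured 45.2 ± 1.55 in pleuropodia and 151 ± 40.3 in legs (SD, n = 3). SgreTa0005843 peaked early in pleuropodia, at 5786 RPKM at day 7, and had 4148, 1973 and 1355 at days 8, 8-9 and 10. Its leg level was highest at day 10, with 1260.1 RPKM, and legs and pleuropodia stood at 69.8 and 183 at day 12 (days 6 to 8-9: 3.87 ± 0.45, adjusted p = 0.00392 from limma). In 9 of the 34 transcripts the highest pleuropodia value lay before day 10, and in none of the 34 did the highest leg value. The shares over all transcripts are not given for these 2 counts.

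Smaller differences towards pleuropodia were called in further transcripts without a name. SgreTa0003119 measured 5.38, 52.5, 58.1 and 86.0 RPKM in pleuropodia at days 6 to 8-9 and 1.57, 3.26, 6.58 and 4.97 in legs (3.30 ± 0.47, adjusted p = 0.00591 from limma). SgreTa0002578 had 3.07, 22.9, 29.4 and 39.2 RPKM in pleuropodia and 1.72 to 6.08 in legs (2.38 ± 0.43, adjusted p = 0.0106 from limma). Both were higher in pleuropodia on each day, with the step between days 6 and 7. SgreTb0019643 measured 9.96, 84.0, 77.5 and 69.7 RPKM in pleuropodia and 1.86, 5.37, 37.2 and 22.2 in legs (2.39 ± 0.44, adjusted p = 0.0109 from limma). In SgreTa0007798 and SgreTa0001090 the pleuropodia value of day 6 was the highest of the 4. It was 87.4 RPKM against 12.4 in legs for the first (1.74 ± 0.35, adjusted p = 0.0143 from limma) and 46.8 against 3.45 for the second (1.80 ± 0.52, adjusted p = 0.0390 from limma). The call of SgreTa0003119 held in all 9 alternatives. That of SgreTb0019643 was lost without the day as a block (adjusted p = 0.0978), those of SgreTa0002578 and SgreTa0007798 in 2 alternatives each that left out a day from 7 on (adjusted p up to 0.0577 and 0.0622), and that of SgreTa0001090 in 5 (up to 0.119).

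Of the 12 tested transcripts without a call, 8 had the higher value in legs at day 6 and in pleuropodia at days 7, 8 and 8-9: SgreTa0000098, SgreTa0004314, SgreTa0006519, SgreTa0006851, SgreTa0013672, SgreTa0013803, SgreTa0016819 and SgreTa0017215. SgreTa0013672 had the widest turn. Legs were at 16.1, 20.2, 21.7 and 18.9 RPKM over the 4 days, and pleuropodia at 0.778, 222, 392 and 319. The difference over the 4 days was 2.24 ± 1.51 (adjusted p = 0.256 from limma). Since these 8 are grouped here by their values on the single days, no fit without day 6 is given for them. Leaving out SgreTa0000098 and SgreTa0013672, leg levels at day 7 ran from 1.91 RPKM in SgreTa0013803 to 10.1 in SgreTa0006519, and the pleuropodia levels from 14.9 in SgreTa0004314 to 58.9 in SgreTa0006519. SgreTa0013623 was higher in pleuropodia at day 6 (57.8 RPKM against 16.3) and lower at day 7 (15.3 against 25.5), and was not called in any of its 9 alternatives either (0.68 ± 0.42, adjusted p = 0.224 from limma). SgreTa0000098 stayed under 6 RPKM in both tissues to day 8-9 and first passed the threshold at day 10 in both (0.51 ± 0.29, adjusted p = 0.185 from limma).

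The change with day between days 6 and 8-9 was fitted as a slope in each tissue. The transcripts were chosen to be higher after these days than before them in each tissue, which by itself favours rising slopes. Setting their slopes within a tissue beside those of all transcripts therefore cannot show a rise beyond the choice. In pleuropodia 12 of the 31 transcripts tested rose at an adjusted p under 0.05 and none fell, against 4.36% and 4.3% of all transcripts. The steepest was the C-type lysozyme, at 4.60 ± 0.48 log2 units per day (adjusted p = 0.0202 from limma). The median slope was 1.5 log2 units per day in pleuropodia and 0.81 in legs, against -0.02 and 0.01 over all transcripts. In legs limma called none of the 31, with 11 rising and none falling at an unadjusted p under 0.05, against 7.56% and 4.17% of all transcripts. None differed in slope between the tissues after adjustment; at an unadjusted p under 0.05, 8 were steeper in pleuropodia and 5 in legs, against 5.21% and 8.17% of all transcripts. Neither the leg slopes nor the difference of slopes gave a call in any of the 10366 transcripts. Without the pair of day 6, and likewise without that of day 8, no pleuropodia slope was called in any transcript of the table, and without the filter 6 of the 34 and 487 of all 12988 were called rising.

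At days 10 to 12 the 34 transcripts were all at 10 RPKM or more by the choice made, and their levels spread widely. Means over the 3 stages ranged from 13.4 to 793 RPKM in legs, with a median of 40.4, and from 17.2 to 15186 in pleuropodia, with a median of 134. The mean was over 2-fold higher in pleuropodia for 19 transcripts, over 2-fold higher in legs for 4 and within 2-fold for 11, where 13.9% of all transcripts were higher in pleuropodia and 41.2% in legs. In 17 every pleuropodia library was above every leg library and in 3 the reverse held, against 17% and 41.8% of all transcripts. The mean over the 3 stages exceeded 1000 RPKM in 10 transcripts in pleuropodia and in none in legs. In single leg libraries SgreTa0005843 exceeded it, with 1260 RPKM at day 10 and 1050 at day 11. At day 10, 43 transcripts outside the 34 reached 1000 RPKM in pleuropodia and 51 in legs.

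**Figure D5:**
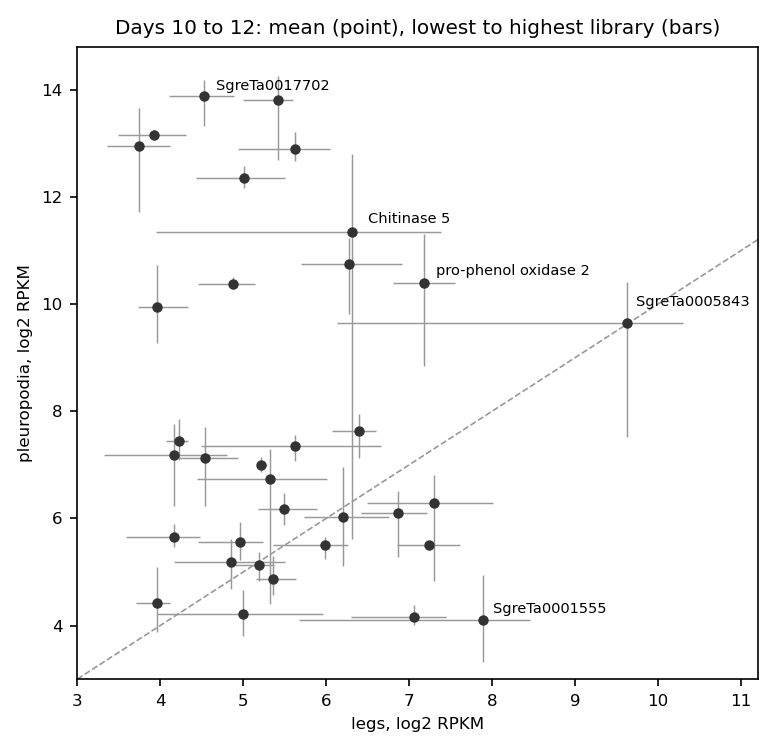
Level of the 34 transcripts at days 10 to 12 in legs (horizontal axis) and pleuropodia (vertical axis), both as log2 RPKM, with the mean of the 3 libraries as the point and the lowest and highest library as the ends of the bars; the broken line marks equal levels. The points spread over a wider range in pleuropodia than in legs, and Chitinase 5 and SgreTa0005843 have the longest bars.

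The widest ratios were those of SgreTa0017702, the DUF4773 protein and SgreTa0005052, at 658, 601 and 594 times the leg mean. The lysozyme reached 14452 ± 6902 RPKM in pleuropodia and 42.9 ± 9.53 in legs (SD, n = 3), and SgreTa0001636 7578 ± 1643 and 49.4 ± 17.9. At the other end stood SgreTa0001555, SgreTa0006876 and SgreTa0007821, with leg means 13.7, 7.45 and 3.34 times those of pleuropodia. SgreTa0005843 had nearly equal means, 807 ± 590 RPKM in pleuropodia and 793 ± 635 in legs, both made up of 2 high stages and a low day 12. In SgreTa0006876 the groups were far apart, at 78.8 to 174 RPKM in legs and 16.1 to 21.0 in pleuropodia.

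In 10 transcripts, among them 7 of the 8 with a protein name, the leg mean at days 10 to 12 was under 5% of the pleuropodia mean. Chitinase 5 is among these 10, but its low percentage of 3.03% rests on the 7102 RPKM of the day 12 pleuropodia. Legs held 339% of its pleuropodia level on day 10 and still 7.89% a day later. The leg level of the rest can be read beside that of other abundant pleuropodia transcripts. At day 10 the leg level was 0.130% of the pleuropodia level in the DUF4773 protein and 0.168% in SgreTa0017702. Among the 66 other transcripts of the study's list it was 0.0582% at the lowest and 0.809% at the median. In the opposite direction, *dac* in pleuropodia made up 0.0385% of its leg level on day 10. This percentage then rose with each stage, reaching 0.334% on day 12 and 0.676% on day 13. For SgreTa0017702 the leg level was 0.0461% of the pleuropodia level at day 8 and 0.0217% at day 8-9, and it lay between 0.113% and 0.178% from day 10 to day 13. The part that traces of pleuropodia RNA in leg libraries have in these leg levels was not tested. The 24 transcripts with at least 5% all entered the test at days 6 to 8-9, in which 11 were higher in pleuropodia and 1 in legs, where 23.9% and 29.8% of all transcripts were. Among these 24, pleuropodia passed the early threshold first in 17, legs in 1 and both at the same stage in 6.

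Day 13, the last stage sequenced, was not used in the choice. The paper describes the pleuropodia as in advanced degeneration by then and pooled days 10 to 12 alone. In legs 10 of the 34 transcripts were higher at day 13 than their mean of days 10 to 12, where 21.5% of all were. Of these 10, 4 were over 2-fold higher, and 11 of the 34 were over 2-fold lower, where 10.1% of all transcripts were over 2-fold higher and 46.5% lower. In pleuropodia 15 were higher, against 21.6% of all, 3 of them over 2-fold, and 7 were over 2-fold lower, against 3.73% and 14.3% of all. After TMM scaling 19 were higher in legs and 20 in pleuropodia, against 45.5% and 46.8% of all, so the direction of small changes rests on the scaling. Highest against their leg means were SgreTa0002225, from 18.0 ± 9.12 to 67.7 RPKM, SgreTa0000098, from 32.0 ± 26.2 to 107, and SgreTa0001090, from 40.9 ± 7.73 to 109. Lowest against their leg means were SgreTb0027550, 18.1-fold lower, SgreTa0013672, from 37.0 ± 1.77 to 2.2 RPKM, and SgreTa0005843, from 793 to 51.4.

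In pleuropodia Chitinase 5 stood highest at day 13, at 5.87 times its mean of days 10 to 12 and 576 times the leg level of 26.7 RPKM at that age. SgreTa0001555 and SgreTa0000098 both stood at 2.16 times their means, at 37.2 and 39.9 RPKM. SgreTa0005843 was 7.52-fold lower, SgreTb0009705 4.16-fold lower and SgreTa0013672 2.62-fold lower than over days 10 to 12. SgreTb0009705 had its highest pleuropodia level at day 8, with 246 RPKM between 26.6 and 27.1 at the neighbouring stages (days 6 to 8-9: 4.05 ± 0.42 towards pleuropodia, adjusted p = 0.00310 from limma). Its level in pleuropodia stayed under that in legs at days 12 and 13, at 21.1 and 25.7 RPKM against 64.6 and 65.0. The serine protease SgreTa0001636 and the collagen had 11.1 and 6.82 RPKM in legs at day 13, each over 4-fold below their leg means, and kept 5849 and 3712 RPKM in pleuropodia.

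Near the fold threshold the choice is arbitrary. Just inside were SgreTa0005843, SgreTa0016697 and SgreTa0001090, whose lowest late value was 5.33, 5.81 and 6.15 times the highest early value. Just outside, at 4.55, 4.52 and 4.27 times, were SgreTa0003265, SgreTa0005600 (beta-N-acetylglucosaminidase NAG2 in the study's list) and SgreTa0016513. SgreTa0016697 measured 2.48 to 6.23 RPKM at days 4 and 5 and 36.2 to 89.2 at days 10 to 12, and was higher in pleuropodia at days 6 to 8-9 (1.33 ± 0.32, adjusted p = 0.0227 from limma, and up to 0.0973 without day 7, 8 or 8-9).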

How the data were processed

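Per the labels, mRNA was sequenced in 20 libraries as reads of 50 bases. The pair of day 8-9 came from another centre, where mates of 75 bases were read and shortened to 50; the paper describes the mates as joined into 1 set, the labels describe 1 direction as used. The authors mapped with Bowtie2 2.2.5 to their own transcriptome, filtered with HTSFilter and deposited RPKM in a table named a count matrix. Reads were recovered from the RPKM (100% of values whole within 0.05 reads, shortest fitting length) for depth and intervals only. The authors' own comparison (log2 ratios and probabilities) was not used.

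A count test had been foreseen for counts; limma-trend was used on RPKM. RPKM were TMM-scaled (30% of ratios and 5% of abundances trimmed), transcripts with at least 1 RPKM in 4 of 8 libraries kept, and log2(RPKM + 0.5) fitted with day as a block, or with a slope per tissue (day 8-9 as 8.5), adjusting by Benjamini-Hochberg over all transcripts. The code was tested on simulated data. Same-day libraries are paired by age, with residual correlations of 0.205 to 0.618.

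The transcripts and lists were chosen with earlier results of these data known. Named were transcripts with a protein name, the 5 highest at days 10 to 12, the 6 largest called differences and 3 largest called slope differences in each direction, the 3 highest and 3 lowest ratios of tissues and of day 13, and the 3 on each side of the fold threshold; the others were added after their values were seen, so that every transcript is accounted for. Tools were Python 3.11.15 (pandas 2.3.3, numpy 2.4.6, matplotlib 3.10.9) and R 4.3.3 (limma 3.58.1).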

Additional observations from a re-analysis of the deposited data

Results flagged for a closer look

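In 10 of 68 groups of 4 libraries (days 6, 7, 8 and 8-9 of 1 transcript in 1 tissue) 1 library lay far from the other 3 by Dixon's criterion on log2(RPKM + 0.5), and each time it was the low pleuropodia library of day 6. The 4 libraries are an age series of transcripts chosen to rise, and all 10 flags lie in 1 library. The number of flags can therefore not be compared with a chance rate. The day 6 levels were 0.658 RPKM for SgreTa0001555, 1.73 for SgreTa0003175, 2.85 for SgreTa0003661, 1.18 for SgreTa0004314 and 0.348 for SgreTa0005052. They were 1.21 for SgreTa0007821, 0.778 for SgreTa0013672, 0.779 for SgreTa0013803, 9.68 for SgreTa0016697 and 9.96 for SgreTb0019643. At day 7 the same 10 transcripts stood between 14.9 (SgreTa0004314) and 717 RPKM (SgreTa0003661) in pleuropodia.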

How the results depend on the processing

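No alternative turned the direction of a called difference. Over days 6 to 8-9 the count of 18 transcripts higher in pleuropodia was 14 with no replicate block and 15 without the filter. In these 2 fits 1860 of all 10366 and 2490 of all 12988 transcripts were called higher. The count was 17 with library totals, against 17.0% of all. It was 18 with either other pseudocount, against 2462 and 2484 of all 10366. Leaving out a day gave 6 to 30 higher and 1 to 2 lower in pleuropodia, with the shares of all given above. The 24 transcripts with a leg level of at least 5% of pleuropodia gave 11 (added after seeing the data), where 23.9% of all transcripts tested were called. Of the pleuropodia slopes 6 were called without the filter and 0 to 10 with a day left out, the 0 being without day 6 or 8, when none was called in the whole table. Without day 7 the count of rising slopes was 8, against 133 of all 10433 transcripts. Without day 8-9 it was 10, against 1007 of all 10353. For the difference of slopes the replicate block gave 0 calls as well, and leaving out a day gave 0 to 1, the 1 being the H2-like protease without day 8-9. Legs were first in 2 transcripts at 3 times the early value and in 5 at 50% of the late mean, and the same stage was found in 16 at 3 times and in 5 with a minimum of 1 RPKM. The number of transcripts was 22 at 10 times and 214 at a minimum of 1 RPKM, 43 with TMM scaling, and 34 to 49 with 1 library left out. At day 13, 19 were higher in legs after TMM scaling instead of 10. In the low transcripts of days 4 to 6 depth limits the values to a few reads.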
